A study of Mus musculus with 2 samples.

Results

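Krt7, Krt8, Krt14, Krt16, Krt18 and Klk8 are 6 of the 34097 genes listed in both libraries. They are described here in the tumour-like cells of mouse lung cancer xenografts grown from LLC, the Lewis lung carcinoma line. The genes were chosen by their measured values in these same cells (summed counts, shares of positive cells and joint detection), so their levels and their differences between libraries are given as a description, without a test. Single cells were profiled by the 10x Genomics droplet method, in which each unique molecular identifier (UMI) stands for 1 captured RNA molecule. The control group and the group with an shRNA against GFPT2, a glucosamine synthesis enzyme, had 1 library each; the latter is named the knockdown library here. The series asks how that knockdown bears on the tumour's immune cells. The labels give no strain, age, time, hairpin sequence or number of animals per library, and no replicate stands behind either group.

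Tumour-like cells were taken as cells with no UMI of Ptprc (the leukocyte antigen CD45), under 5 UMIs of Lyz2 (a myeloid lysozyme) per 10000 and at least 5000 UMIs. The gate held 4986 control and 5211 knockdown cells, with medians of 18744 and 14667 UMIs per cell. Macrophages, cells with at least 10 UMIs of C1qa, C1qb and C1qc per 10000, served as the level that free RNA and mixed droplets give; there were 3978 and 4523 of them, with medians of 5370.5 and 3925 UMIs. Hmga2, a chromatin protein taken here as the marker of LLC cells, stood at 220 CPM (counts per 1000000 UMIs of the same cells) in control and at 218 CPM in knockdown tumour-like cells, against 30.3 and 84.6 CPM in macrophages. Xist, the X-inactivation RNA, stood at 2.88 and 3.99 CPM in tumour-like cells and at 497 and 400 CPM in macrophages. The markers of simple and lung epithelium were nearly absent from the tumour-like cells, with summed levels of 0.618 and 0.776 CPM over 9 genes and Cldn4 at 0 in both libraries, although the label names a lung carcinoma. Of 6 fibroblast markers, Col3a1 stood at 1410 and 1643 CPM and Dcn at 1027 and 1076 CPM in the gate, whereas Col1a2 stood at 4.81 and 9.83 CPM and Lum at 0.695 and 0.696 CPM. Endothelial markers, over 7 genes, summed to 9.95 and 12.8 CPM; the gate holds no rule against cells without Ptprc that are not tumour cells. The targeted gene, Gfpt2, had 212 UMIs in control and 57 in knockdown tumour-like cells, a log2 ratio of -1.65 (-2.25 to -1.08). Intervals are 95% intervals that cover counting error only.

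Keratins are the intermediate filament proteins of epithelial cells, and each filament pairs a type I with a type II chain. Krt8 (type II) and Krt18 (type I) form the filaments of simple epithelia and Krt7 is a further type II keratin of simple and ductal epithelia, whereas Krt14 (type I) belongs to the basal layer of stratified epithelia, paired with Krt5, and Krt16 (type I) is induced in wounded and stressed epidermis. Klk8, also called neuropsin, is a secreted serine protease of the kallikrein family, known from epidermis and brain. Carcinoma lines that have become mesenchymal often keep little keratin, and vimentin (Vim) then carries the filament network.

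The simple-epithelial pair was close to absent. Krt8 (ENSMUSG00000049382) had 9 UMIs in control and 8 in knockdown tumour-like cells, each in a cell of its own, which is 0.0868 CPM (0.0397 to 0.165) and 0.0913 CPM (0.0394 to 0.180). Krt18, its partner chain, had 1 UMI in control tumour-like cells and none in knockdown ones. With the limit for a count of 0 set at 3 cells, 0 of 5211 allows a share of cells with a UMI of up to 0.0576%. In macrophages Krt18 had 8 UMIs in control, all in 1 cell, and 4 in knockdown. Krt8 had 4 UMIs in control macrophages, all in 1 cell, and none in knockdown ones. The intervals of both genes in tumour-like cells reach or lie below those of macrophages, so no fold is given for them. Vim, in contrast, stood at 2250 CPM in control and at 2202 CPM in knockdown tumour-like cells.

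Krt7 (ENSMUSG00000023039) was detected in a small share of cells at a like level in both libraries. It had 114 UMIs in 82 control cells (1.64%) and 87 UMIs in 62 knockdown cells (1.19%). Its level was 1.10 CPM (0.907 to 1.32) in control and 0.992 CPM (0.795 to 1.22) in knockdown tumour-like cells, a log2 ratio of -0.15 (-0.73 to 0.43). The most that 1 cell held was 14 UMIs in control and 6 in knockdown, and most positive cells held a single UMI. Krt7 in macrophages was lower, at 0.425 and 0.379 CPM, from 10 and 8 UMIs.

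Krt14 (ENSMUSG00000045545) was higher in the knockdown library. Control tumour-like cells held 1400 UMIs of it, a level of 13.5 CPM (12.8 to 14.2), in 376 cells (7.54%). Knockdown tumour-like cells held 2090 UMIs, a level of 23.8 CPM (22.8 to 24.9), in 504 cells (9.67%). The level was 1.76-fold higher in knockdown, a log2 ratio of 0.82 (0.68 to 0.96), which is short of the 2-fold change that 0.509% of the 12372 genes with at least 100 UMIs in either library reached upwards. Cells rich in Krt14 were few in both libraries: 30 control and 47 knockdown cells held 10 or more UMIs, and 47 and 57 cells held 50% of all its UMIs. Macrophages of the knockdown library also held more Krt14, 7.25 CPM against 1.02 CPM in control, and Hmga2 moved the same way in them. In macrophages with Xist and without Hmga2, a filter chosen after the data were seen, Krt14 stood at 2.55 CPM in knockdown and 0.610 CPM in control. The part of Hmga2-holding cells in the macrophage value was not tested.

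Krt16 (ENSMUSG00000053797) and Klk8 were both about 6 times higher in the control library. Krt16 had 3697 UMIs in 306 control cells (6.14%) and 496 UMIs in 128 knockdown cells (2.46%). Its level was 35.7 CPM (34.5 to 36.8) in control and 5.66 CPM (5.17 to 6.18) in knockdown tumour-like cells, 6.31-fold lower in the latter, with a log2 ratio of -2.66 (-2.83 to -2.48). Cells rich in Krt16 set this level: 83 control cells held 10 or more UMIs and 17 held 50 or more, with up to 297 in 1 cell, whereas 13 knockdown cells held 10 or more, none held 50, and the most was 41. In control, 22 cells held 50% of all Krt16 UMIs.

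Klk8 is encoded on mouse chromosome 7, where RefSeq lists Klk11, Klk10 and Klk9 before it and Klk7, Klk6 and Klk5 after it. The windows around the annotated starts of Klk8 and Klk10 are shown because these kallikreins, with Klk9 between them, were detected with Krt16 in the same control cells, in which Klk9 had 3 UMIs, as described further on. Both are on the plus strand of GRCm38.p6 and come from RefSeq; the build behind the counts is not given in the sources used here. They cover 300 bases each, Klk8 at chr7:43797327-43797626 and Klk10 at chr7:43780804-43781103. Capitals mark matches, on either strand, to a TATA box (TATAAA), a GC box (GGGCGG), an AP-1 site (TGANTCA) or an AP-2 site (GCCNNNGGC).
Klk8: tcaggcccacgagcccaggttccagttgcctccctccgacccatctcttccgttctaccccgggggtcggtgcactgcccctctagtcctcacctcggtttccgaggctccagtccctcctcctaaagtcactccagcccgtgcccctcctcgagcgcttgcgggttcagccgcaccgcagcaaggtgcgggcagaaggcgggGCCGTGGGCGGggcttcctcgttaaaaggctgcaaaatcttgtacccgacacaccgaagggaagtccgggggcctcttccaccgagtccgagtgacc
Klk10: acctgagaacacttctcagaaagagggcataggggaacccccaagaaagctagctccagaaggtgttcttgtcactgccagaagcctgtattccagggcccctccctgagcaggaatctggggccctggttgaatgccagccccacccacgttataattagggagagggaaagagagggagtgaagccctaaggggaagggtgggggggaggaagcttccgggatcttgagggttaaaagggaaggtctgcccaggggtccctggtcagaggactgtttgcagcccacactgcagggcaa
The run in capitals in Klk8 is an AP-2 match at -47 and a GC box at -42, counted from the annotated start, and the pair overlap. The Klk10 window held none of these letters. Among 32851 promoters of the same length, 16.6% held the AP-2 letters, 35.7% the GC box, 13.6% the TATA box and 7.81% the AP-1 letters. The window of Klk8 was 65.3% G and C and that of Klk10 57.3%, with a median of 52.7% over all promoters. These are matches of letters and not shown binding sites.

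Klk8 had 3168 UMIs in 423 control tumour-like cells (8.48%) and 418 UMIs in 132 knockdown ones (2.53%). Its level was 30.6 CPM (29.5 to 31.7) in control and 4.77 CPM (4.32 to 5.25) in knockdown tumour-like cells, 6.41-fold lower in the latter, with a log2 ratio of -2.68 (-2.87 to -2.49). Among all genes with at least 100 UMIs, 0.388% were lower by 2-fold or more, and the median log2 ratio was 0.04. Since Krt16 and Klk8 were chosen for such differences, nothing is read from this share. The positive cells of the control library held a median of 4 UMIs of Klk8 and those of the knockdown library 2. In all, 104 control and 7 knockdown cells held 10 or more, and the most in 1 cell was 71 and 19.

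**Figure D1:**
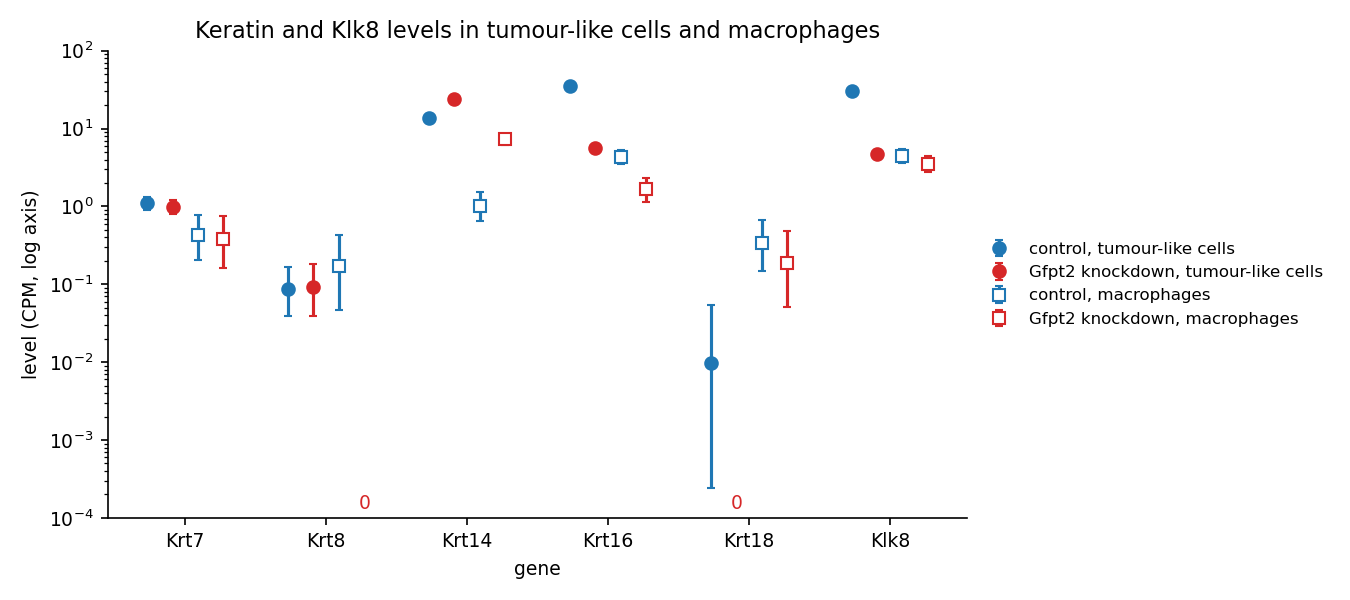
Levels of the 6 genes in CPM on a log axis, in tumour-like cells (filled circles) and macrophages (open squares) of the control (blue) and Gfpt2 knockdown (red) library, with 95% Poisson intervals; a 0 marks genes without a UMI. In control and knockdown tumour-like cells Krt16 stands at 35.7 and 5.66 CPM, Klk8 at 30.6 and 4.77 CPM and Krt14 at 13.5 and 23.8 CPM, with Krt8 at 0.0868 and 0.0913 CPM.

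**Figure D2:**
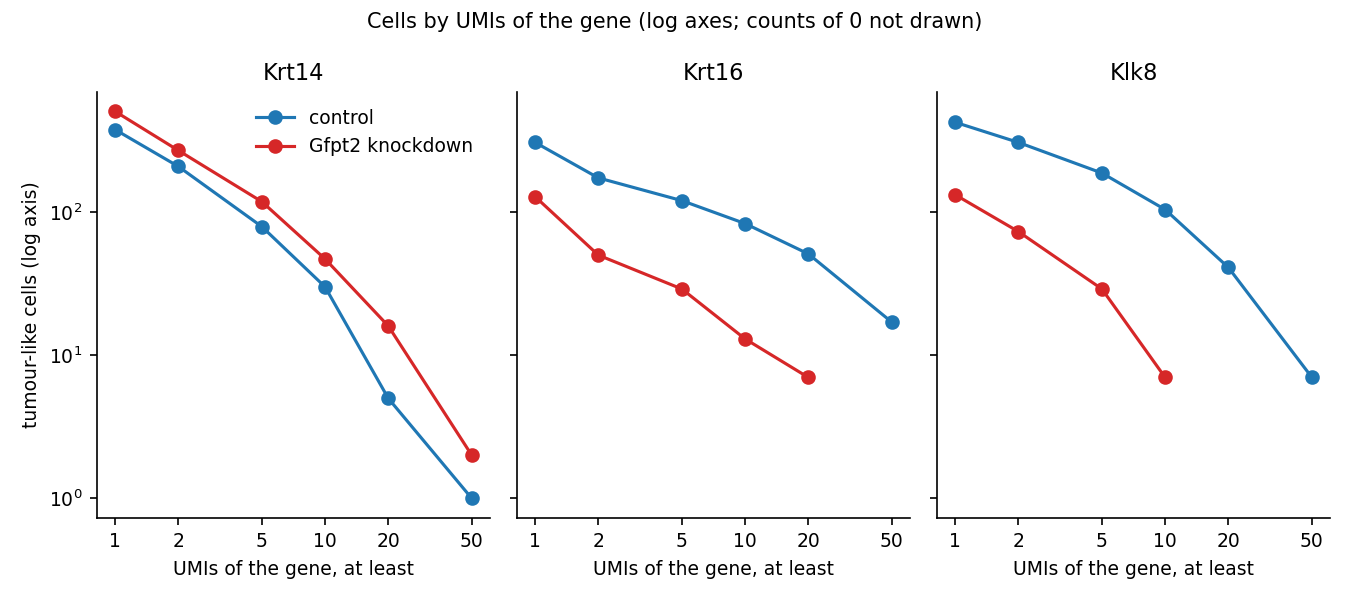
Number of tumour-like cells (log axis) holding at least 1, 2, 5, 10, 20 or 50 UMIs (log axis) of Krt14, Krt16 and Klk8 in the control (blue) and Gfpt2 knockdown (red) library; counts of 0 are not drawn. At 20 or more UMIs there were 51 control and 7 knockdown cells for Krt16, and 41 control cells and none in knockdown for Klk8.

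The levels were then set against macrophages of the same library. Krt14 was 13.2-fold higher in tumour-like cells than in macrophages in control (log2 3.73, 3.08 to 4.44) and 3.29-fold higher in knockdown (1.72, 1.43 to 2.02). Krt16 was 8.22-fold higher in control (3.04, 2.71 to 3.38) and 3.41-fold higher in knockdown (1.77, 1.17 to 2.42). Such a 2-fold excess over macrophages was met by 24.8% of all genes tested in control and by 16.8% in knockdown. Klk8 stood 6.84-fold above macrophages in control (2.77, 2.45 to 3.11), but its excess in knockdown, 1.34-fold, had an interval that includes no difference (0.42, -0.04 to 0.91). Krt7 was 2.59-fold and 2.62-fold above macrophages, with intervals from 1.16 to 6.48 and from 1.06 to 7.48. Without doublet removal the Krt7 intervals included no excess, at a log2 ratio of 0.62 (-0.18 to 1.45) in control and 0.73 (-0.22 to 1.74) in knockdown, and in knockdown 5 further alternatives also included it. The other ratios also depend on the cells used. Without doublet removal, which changes the tumour-like gate too, the control log2 ratios were 0.87 for Krt14, 1.66 for Krt16 and 0.89 for Klk8. Macrophages that held Ptprc and no Hmga2 were also used, a choice made after the data were seen. With them the knockdown log2 ratio was 3.12 for Krt14 and 1.34 (0.60 to 2.15) for Klk8.

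Shares of positive cells were compared at 1 depth, with every cell thinned to 5000 UMIs, which left out 1797 control and 2921 knockdown macrophages with fewer. Krt14 was then found in 3.49% of control and 5.16% of knockdown tumour-like cells, against 0.229% of control macrophages and 48 of 1602 knockdown ones. Unthinned shares in macrophages were 0.528% and 1.95% for Krt14, 1.26% and 0.619% for Krt16 and 1.56% and 1.08% for Klk8. Thinned Krt16 shares were 3.39% and 1.27% (0.981 to 1.61) in tumour-like cells and 1.19% and 0.749% (0.388 to 1.30) in macrophages. Thinned Krt7 shares were 0.542% (0.357 to 0.787) and 0.461% (0.295 to 0.685) in tumour-like cells and 0.138% (0.0284 to 0.401) and 0.125% (0.0151 to 0.450) in macrophages. For Klk8 they were 5.13% and 1.54% in tumour-like cells and 0.871% and 1.06% in macrophages. The interval of the knockdown tumour-like share of Klk8 (1.22% to 1.91%) overlaps that of the macrophages (0.619% to 1.69%). The same overlap was seen for Krt16 in knockdown and for Krt7 in both libraries. No test of these differences was run. The cells just outside the gate for depth, without Ptprc and with under 5000 UMIs, numbered 567 and 787 and held Krt16 at 26.6 and 2.43 CPM and Klk8 at 38.7 and 8.28 CPM. Of the 51 control UMIs of Klk8 there, 28 were in 127 cells with Xist and without Hmga2 (89.3 CPM), and of the 17 knockdown UMIs 6 were in 72 such cells.

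The 6 genes form 15 pairs, and the share of cells with the second gene was compared between cells with and without the first. In control, Krt16 and Klk8 came in the same cells: 144 of 306 Krt16-positive cells (47.1%, 41.4 to 52.8) held Klk8, against 5.96% of Krt16-negative cells, a ratio of 7.89 (6.19 to 9.97). After thinning the shares were 57.4% and 3.30%. In knockdown, 4 of 128 Krt16-positive cells (3.12%, 0.858 to 7.81) held Klk8, against 2.52% of the rest, a ratio of 1.24 (0.287 to 3.71).

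Krt16 and Krt14 showed the other order. In control, 38 Krt16-positive cells (12.4%) held Krt14, against 7.22% of Krt16-negative cells, a ratio of 1.72 (1.12 to 2.56); after thinning it was 2.11, with an interval that includes no excess (0.952 to 4.20). In knockdown, 49 Krt16-positive cells (38.3%) held Krt14, against 8.95%, a ratio of 4.28 (3.05 to 5.78), and 5.59 after thinning. Of the cells with both, 9 of 38 held Klk8 in control and 0 of 49 in knockdown. Krt14 and Krt16 are neighbouring genes on chromosome 11 and share an exact run of 134 bases in their reference transcripts, which ends 1166 and 1138 bases before the transcript ends; within the last 500 bases the longest shared run was 55 bases. Reads inside shared runs cannot be told apart, and which end of the transcript was read is not given in the sources used here. In control, 268 cells held Krt16 without Krt14 and 338 held Krt14 without Krt16; in knockdown these were 79 and 455. The 49 knockdown cells with both held Krt14 at 386 CPM and Krt16 at 239 CPM.

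Krt7 went with Krt14 in both libraries. Of Krt7-positive cells, 25 (30.5%) held Krt14 in control, against 7.16% of Krt7-negative cells, a ratio of 4.26 (2.63 to 6.45). In knockdown it was 22 cells (35.5%) against 9.36%, a ratio of 3.79 (2.33 to 5.67). Krt14 and Klk8 showed no such excess: 8.24% of Krt14-positive and 8.50% of Krt14-negative control cells held Klk8, a ratio of 0.97 (0.607 to 1.49). The knockdown ratio was 0.766 (0.310 to 1.68). After thinning these were 0.439 (0.107 to 1.25) and 0.471 (0.0459 to 2.13), on 4 and 2 shared cells. Pairs with Krt8 or Krt18 rested on at most 2 shared cells.

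**Figure D3:**
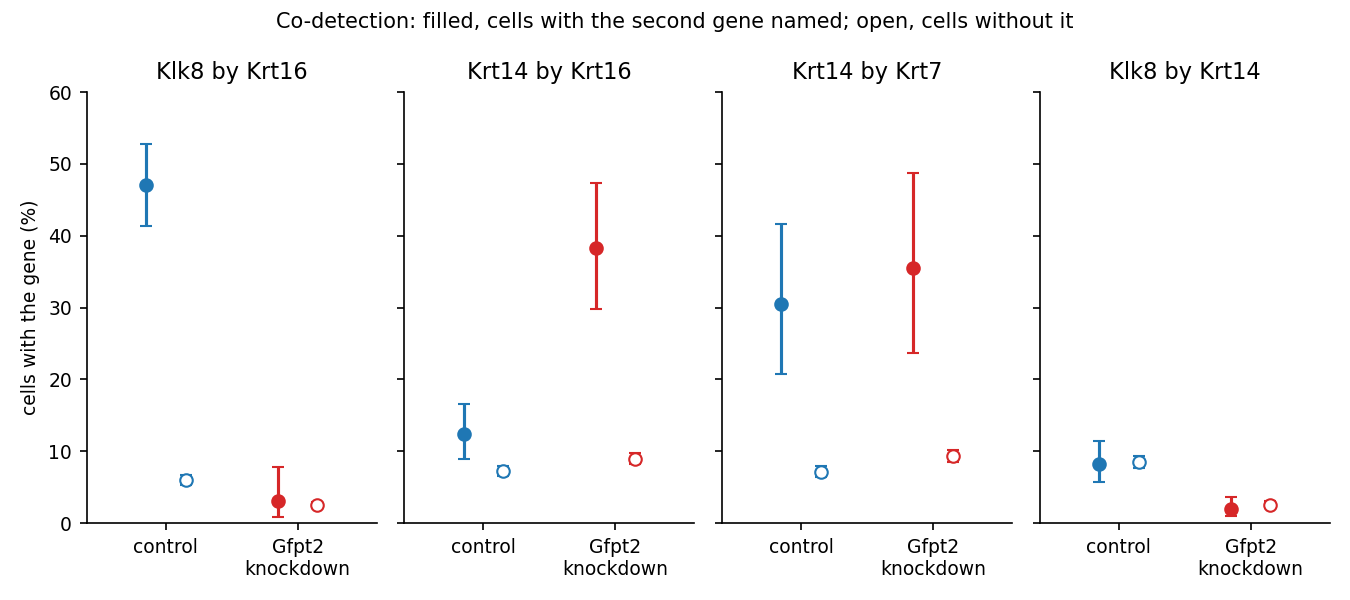
Share of tumour-like cells (percent) with the gene named first in each panel's title, among cells with (filled) and without (open) the gene named second, for the control (blue) and Gfpt2 knockdown (red) library, with 95% Clopper-Pearson intervals. Klk8 is in 47.1% of control and 3.12% of knockdown Krt16-positive cells, and Krt14 is in 12.4% and 38.3% of them.

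The control cells with both Krt16 and Klk8 carried most of both genes. These 144 cells held 76.7% of all control Krt16 UMIs, 66.1% of Klk8, 70.0% of Klk10 and 47.2% of Gfpt2, and 2.57% of Krt14. Their levels were 721 CPM for Krt16, 532 CPM for Klk8, 25.4 CPM (20.7 to 30.9) for Gfpt2 and 44.5 CPM (38.2 to 51.6) for Klk10, a kallikrein of stratified epithelia; Gfpt2 and Klk10 stood at 0.614 and 0.659 CPM in the 4401 control cells with neither gene. Klk9 had 3 UMIs in the 144 cells. Hmga2 stood at 309 CPM and Xist at 2.04 CPM in them, near or above the whole tumour-like gate for the former and far below macrophages for the latter. Knockdown held 4 cells with both Krt16 and Klk8, with 26 UMIs of Krt16, 18 of Klk8 and none of Gfpt2 or Klk10. Fewer cells of this kind and less of these RNAs in each cell cannot be told apart, since the same genes define the cells.

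Control cells with only 1 of the pair hold none of the other by definition. Of the gene that they did hold they had less than the cells with both, and also less Gfpt2 and Klk10. The 162 cells with Krt16 and no Klk8 held Krt16 at 223 CPM, Krt14 at 73.0 CPM, Gfpt2 at 3.37 CPM and Klk10 at 0.777 CPM. The 279 cells with Klk8 and no Krt16 held Klk8 at 170 CPM, Krt14 at 9.95 CPM, Gfpt2 at 6.95 CPM and Klk10 at 2.05 CPM. In knockdown, 124 cells held Krt16 and no Klk8, with Krt16 at 181 CPM, Krt14 at 155 CPM and Gfpt2 at 1.54 CPM. The 128 knockdown cells with Klk8 and no Krt16 held Klk8 at 168 CPM, Krt14 at 45.4 CPM and Xist at 22.7 CPM, above the 3.56 CPM of Xist in the 4955 cells with neither.

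The levels were also taken without the cells that held both genes, a step chosen after the data were seen. Since these cells are defined by Krt16 and Klk8 and most are in control, a smaller difference of both genes is fixed by the step, and the values only show what the other cells held. Krt16 then had 861 control and 470 knockdown UMIs, 8.64 and 5.37 CPM, and a log2 ratio of -0.69 (-0.92 to -0.46). Klk8 had 1075 and 400 UMIs, 10.8 and 4.57 CPM, and a log2 ratio of -1.24 (-1.47 to -1.01). Klk10 had 75 and 60 UMIs, with a log2 ratio of -0.13 (-0.85 to 0.58), and Gfpt2 a log2 ratio of -0.79 (-1.45 to -0.13). Krt14 stayed at 0.80 (0.66 to 0.94).

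The genes that went with each keratin were then sought in both libraries: for each member with at least 20 positive cells, the 5 genes with the highest ratio of CPM in positive over negative tumour-like cells, taking the lower of the 2 libraries. The rule ranks genes and sets no minimum ratio. Positive cells were deeper, with medians of 23577.5 UMIs in Krt16-positive and 18421.5 in Krt16-negative control cells, so detection and depth go together. Genes at least 2-fold higher in positive cells made up 0.186% of those tested for Krt7 in control and 0.502% in knockdown, and 0.464% and 0.85% for Krt14. They made up 2.86% and 0.687% for Krt16, and 2.38% and 0.314% for Klk8. The control counts behind the Krt16 and Klk8 shares were much smaller without the cells holding both genes, as given in the last section.

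The first companion of Krt16 was Slurp1, which encodes a small secreted protein of keratinocytes. It stood at 86.1 CPM in Krt16-positive and 1.13 CPM in Krt16-negative control cells, and at 55.1 and 0.471 CPM in knockdown, log2 ratios of 6.25 (control) and 6.86 (knockdown). Krt16 was found in 73 of 117 control cells with Slurp1 (62.4%), against 4.79% of those without, and in 17 of 40 knockdown cells (42.5%), against 2.15%. Within control, Slurp1 was in 38.2% of the cells with Krt16 and Klk8, 11.1% of those with Krt16 alone, 5.02% of those with Klk8 alone and 0.682% of those with neither. In knockdown it was in 13.7% of cells with Krt16 alone and in 0 of 128 with Klk8 alone. After Slurp1, the genes highest in Krt16-positive over negative control cells, named after their values were seen, were Gjc3 (log2 5.96), Hapln1 (5.76) and Gna14 (5.37), with 0, 0 and 1 UMIs in knockdown Krt16-positive cells. The other companions of Krt16 were Anxa8, an annexin (log2 3.26 in control and 2.91 in knockdown), the chemokine Ccl5 (3.62 and 2.74), the adrenergic receptor Adra1b (4.16 and 2.06) and the predicted gene Gm15987 (3.48 and 1.99). Ccl5 reached 1183 CPM in Krt16-positive control cells and 638 CPM in knockdown ones, against 96.3 and 95.3 CPM in negative cells.

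Krt14-positive cells shared a second set. Msln, the surface glycoprotein mesothelin, was higher by log2 2.36 in control and 2.83 in knockdown, Timp3, an inhibitor of metalloproteinases, by 2.80 and 1.96, and Serpinb9b, a serine protease inhibitor, by 2.40 and 2.16. Anxa8 (1.93 and 3.26) and the predicted gene Gm5886 (2.57 and 1.78) completed it. Mesothelial markers were otherwise scarce in the gate: summed over 5 genes they stood at 3.19 and 1.69 CPM, of which Msln made 3.08 and 1.57. The haemoglobin gene Hbb-bs, named after its values were seen, was high in knockdown Krt14-positive cells through 1 cell: 912 of the 957 UMIs were in it.

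By the lower of the libraries, the first companions of Krt7 were Crabp2, a retinoic acid binding protein (log2 2.06 in control and 1.43 in knockdown), and Cryab, a small heat shock protein (1.70 and 1.42). Lrrn4cl (1.19 and 1.30), the cell cycle inhibitor Cdkn1a (1.15 and 0.85) and the phospholipase Pla1a (0.84 and 1.02) followed. Cryab was also higher in Krt14-positive cells, by 1.76 and 1.02.

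For Klk8, 1 of 5 companions passed 2-fold in both libraries, and 0 of 5 did when cells with Xist were left out, where the highest lower-of-both log2 ratio was 0.77. Sparcl1, a matrix glycoprotein, was higher by log2 4.56 in control and 2.94 in knockdown, but Igfbp4 (1.55 and 0.71), Gpnmb (1.68 and 0.63) and Lpcat2 (1.46 and 0.59) were past it in control, and Coq8a (0.75 and 0.74) in neither. In control the cells were led by Hapln1, Gjc3 and Gna14, with log2 ratios of 8.13, 8.05 and 6.70 and no UMI in the 132 knockdown Klk8-positive cells. Knockdown Klk8-positive cells were led by genes held by few cells, named after their values were seen: Rgs5, a pericyte gene, had 63 UMIs in 5 cells, and Igfbp7 415 in 7. In control Klk8-positive cells these had 2 UMIs and none. The T cell gene Cd3g had 63 UMIs in 6 of the 132 knockdown cells (4.55%) and 30 UMIs in 16 of the 423 control cells (3.78%). Xist was found in 16 (12.1%) and 28 (6.62%) of them. Of 5 leukocyte markers tested, 3 (Cd52, Laptm5 and Coro1a) were 2-fold higher in knockdown Klk8-positive cells, beside 0.314% of all genes tested. The median log2 ratio over the 5 was 1.07. In control 0 of 5 were, beside 2.38% of all genes tested. The part of these markers in the Klk8 values was not tested. With Xist-positive cells left out of the gate, the log2 ratio of Klk8 between libraries was -2.72.

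**Figure D4:**
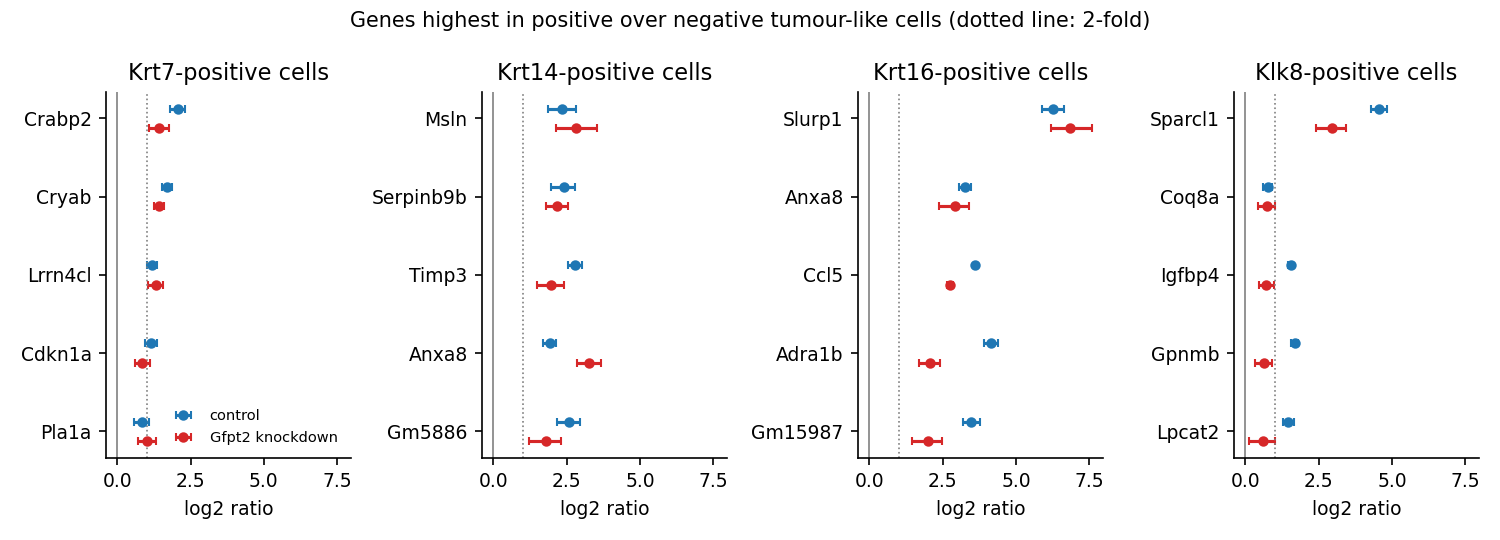
Log2 ratio of CPM in member-positive over member-negative tumour-like cells for the 5 companion genes of Krt7, Krt14, Krt16 and Klk8 in the control (blue) and Gfpt2 knockdown (red) library, with the range that the 95% Poisson intervals allow; the dotted line is 2-fold. Slurp1 in Krt16-positive cells stands at 6.25 and 6.86, and for Klk8 Sparcl1 stands at 4.56 and 2.94, while 0 of its 5 companions are past 2-fold in both libraries when cells with Xist are left out.

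The other keratins and kallikreins were counted by family. Of 28 type I keratin genes, 3 reached 100 UMIs in either library: Krt16 was past 2-fold, lower in knockdown, and Krt14 and Krt10 were not. Krt10, a suprabasal keratin, stood at 22.3 and 24.7 CPM in tumour-like cells, 4.20-fold and 2.93-fold above macrophages. Krt42 had 62 and 41 UMIs. Of 25 type II keratins only Krt7 reached 100 UMIs, and Krt80 had 66 and 54. Krt5, the usual partner of Krt14, and Krt1, that of Krt10, had no UMI in tumour-like cells of either library. Of 26 kallikreins, 3 reached 100 UMIs, and Klk8 and Klk10 were lower by 2-fold or more in knockdown. Klk8 was chosen for its difference and Klk10 reached 100 UMIs in control alone, so nothing is read from this count. Klk10 had 250 and 60 UMIs (-1.82, -2.39 to -1.27) and Klk4, an enamel protease, 174 and 164 (0.16). Klk1b27 had 90 and 45 UMIs and Klk9 64 and 31.

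Genes that act with keratins and kallikreins were counted in the same way, beside the 0.388% lower and 0.509% higher by 2-fold among all genes; with so few past 2-fold anywhere, counts of 0 are a description only. None of 5 junction and plakin genes with 100 UMIs, out of 20, passed 2-fold, with Plec at 260 and 259 CPM and Dst, Pkp4 and Itga6 with log2 ratios of 0.11, 0.16 and -0.01. The fifth of these, Itgb4, was near 2-fold, at 2.67 and 1.39 CPM (log2 -0.94, -1.38 to -0.51). None of 4 epithelial identity genes out of 21 did, Klf4 having a log2 ratio of 0.26, nor any of 6 other intermediate filament genes out of 13. The same was true of 11 AP-1 and EGF receptor genes out of 14, 5 kallikrein substrates and partners out of 8 (Fn1 at 710 and 1012 CPM), 13 hypoxia genes and 10 proliferation genes. Of 15 cornified envelope genes, Sbsn reached 100 UMIs, with 266 and 128 (log2 -0.81), and Dmkn, under that minimum, had 33 and 7 (log2 -2.00, -3.80 to -0.41).

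Within the control library, 2 of 5 junction and plakin genes were 2-fold higher in Krt16-positive cells. So were 1 cornified envelope gene of 1 tested and 1 of 13 hypoxia genes. Among all genes tested the share was 2.86%, and 1 hypoxia gene is not read against it. None of 3 epithelial identity, 6 other intermediate filament, 10 AP-1 and EGF receptor or 5 kallikrein substrate and partner genes was 2-fold higher. At that share these counts of 0 are a description only. Itgb4, the hemidesmosome integrin chain, was higher by log2 3.15 (2.65 to 3.64) and its partner Itga6 by 2.07 (1.69 to 2.43), Sbsn by 3.49 (2.99 to 3.99) and Car9, a carbonic anhydrase, by 1.47 (0.91 to 2.00). In knockdown Krt16-positive cells Itgb4 had 10 UMIs (1.48, 0.15 to 2.64), Itga6 22 and Sbsn 5. Klk8-positive control cells also held more Itgb4 (3.43), Itga6 (1.70) and Sbsn (2.92). Since 144 of these 423 cells are among the Krt16-positive ones, the values of the Krt16 and Klk8 comparisons share cells. Plec, which links integrins to keratin filaments, was not higher in Krt16-positive control cells (-0.19, -0.27 to -0.10), and Vim stood at 2546 CPM in them. Itgb4, Sbsn and Car9 were named after their values were seen. None of the 10 proliferation genes passed 2-fold in the positive cells of Krt7, Krt14, Krt16 or Klk8 in either library. Among all genes 0.186% to 2.86% were 2-fold higher in these comparisons, so the counts of 0 are a description only. The median log2 ratio of the proliferation genes in Krt16-positive cells was 0.26 in control and -0.26 in knockdown.

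Outside the tumour-like gate, Klk8 was higher in T cells (cells with Ptprc and a CD3 chain) than in macrophages. Among all T cells it stood at 92.9 CPM (82.7 to 104) in 591 control cells and 63.2 CPM (53.7 to 74.0) in 497 knockdown cells. To set aside cells mixed with tumour material, those with Xist and without Hmga2 were taken, a filter chosen after the data were seen. In the 387 control and 330 knockdown T cells that passed, Klk8 stood at 97.8 CPM (82.2 to 116) and 96.9 CPM (79.6 to 117), against 2.00 and 1.67 CPM in macrophages under the same filter. NK cells under it stood between these, at 25.9 CPM (9.51 to 56.4) and 14.8 CPM (3.05 to 43.2), from 6 and 3 UMIs. Krt14 had 2 and 1 UMIs in these T cells and Krt16 6 and 1. Among other Ptprc-positive cells under the filter, the Krt14 value of the knockdown library, 41.7 CPM, came from 27 UMIs in 3 cells.

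**Figure D5:**
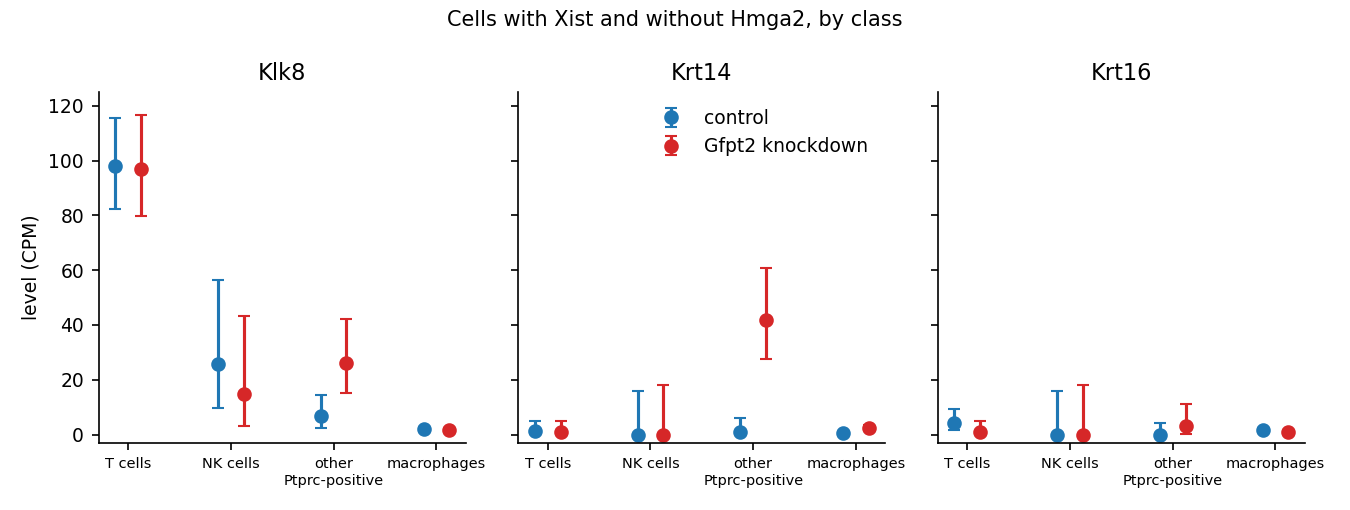
Levels in CPM of Klk8, Krt14 and Krt16 in cells with Xist and without Hmga2, by class, in the control (blue) and Gfpt2 knockdown (red) library, with 95% Poisson intervals. Klk8 stands at 97.8 and 96.9 CPM in T cells and at 2.00 and 1.67 CPM in macrophages, while Krt14 and Krt16 in T cells rest on 6 UMIs or fewer.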

How the data were processed

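The deposited values are raw UMI counts, whole numbers without normalization. Cell Ranger made them, in version 6.1.0 per the file headers and 3.1.0 per the submitters' processing notes. Genome build, annotation and cell filters are not given in the sources used here. The control library held 11977 barcodes with 165824226 UMIs and the knockdown library 12853 with 138402860; they shared 37 barcode sequences. Cells with under 200 genes or over 20% mitochondrial UMIs were left out, and doublets were removed by rank of Scrublet score at 0.8% per 1000 cells (1148 and 1322 cells; Scrublet's own threshold marked 1125 and 2929), leaving 10662 and 11450 cells. In the tumour-like gate, 12 control and 34 knockdown cells also met the macrophage rule.

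CPM is the summed UMIs of a gene over all UMIs of the same cells. With 1 library per group no test was run, and a difference could not be set against replicate error. Intervals are exact Poisson (CPM) and Clopper-Pearson (shares) at 95%; the range given with a log2 ratio is what both intervals permit. A gene was called past 2-fold if it had at least 100 UMIs in either library, or, between positive and negative cells, at least 10 UMIs expected in the positive cells, with 0.5 UMIs added to each side; ratios printed with a range have no added count. Companions needed 50 UMIs in the positive cells of each library, with members left out; up to 4 genes per list, those with the highest control CPM, and every keratin or kallikrein with 30 UMIs were named. The members, lists and rules were chosen with earlier results of these data known. Alternatives changed doublet removal, the UMI and Lyz2 limits, Xist, the macrophage rule, scaling, thinning and the UMIs that make a cell positive. Scripts used Python 3.11.15, numpy 2.4.6, scipy 1.17.1, scanpy 1.11.5 and matplotlib 3.10.9, and were tested on simulated counts.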

Additional observations from a re-analysis of the deposited data

Results flagged for a closer look

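Klk8 appeared in T cells, which the comparisons of tumour-like cells do not use, above its level in macrophages and in tumour-like cells. In T cells with Xist and without Hmga2 it stood at 97.8 CPM in control (138 UMIs in 106 of 387 cells, 27.4%) and at 96.9 CPM in knockdown (110 UMIs in 90 of 330 cells, 27.3%). Macrophages under the same filter held it in 1.19% and 0.725% of cells, although they were deeper, with medians of 5801 and 4423 UMIs against 3051 and 2880.5 in the T cells. Among these T cells, those with Cd8a or Cd8b1 and without Cd4 held Klk8 at 94.2 CPM in control and at 105 CPM in knockdown, and those with neither Cd4 nor a Cd8 chain at 119 and 83.6 CPM. Cells with Cd4 alone were too few to rank, with 3 of 20 and 2 of 16 positive. Between Klk8-positive and Klk8-negative T cells the log2 ratio of Cd8a was -0.01 in control and 0.07 in knockdown, and that of Trdc, the delta chain constant gene, was 1.19 and 2.35 from 39 and 21 UMIs, held by 8.49% of 106 and 5.56% of 90 positive cells. The class filter and these subsets were chosen after the data were seen.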

How the results depend on the processing

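Of 232 values recomputed under an alternative, 201 moved by less than their counting interval or, for counts of genes, by less than 1.5 times; 31 moved by more. The sign changed for values whose main interval includes 0: the log2 level ratio of Krt7 was 0.05 with every cell weighted equally, from -0.15, the co-detection of Klk8 with Krt14 in control was 0.06 without doublet removal and 0.03 with Xist at 0, from -0.04, and that of Klk8 with Krt16 in knockdown was -0.02 after thinning, from 0.31. Another scaling of the libraries shifted log2 ratios by 0.07 (TMM) or 0.04 (median of ratios). The causes of the moves below were not tested. For the log2 ratio of knockdown over control in tumour-like cells (all values log2), leaving out cells with both Krt16 and Klk8 gave -0.69 for Krt16 and -1.24 for Klk8; leaving out the 10 richest cells per library gave -2.98 and -2.95; weighting every cell equally gave -2.47 for Klk8. Thinning to 5000 UMIs moved co-detection to 4.12 for Klk8 in Krt16-positive control cells, from 2.98, to -1.19 for Klk8 in Krt14-positive control cells, from -0.04, on 4 shared cells, and to 2.73 for Krt14 in Krt7-positive knockdown cells, from 1.92. The log2 excess over macrophages, without doublet removal, was 0.87 for Krt14, 1.66 for Krt16 and 0.89 for Klk8 in control and 1.14 for Krt14 in knockdown. With C1q at least 30 per 10000 it was 3.56 for Krt16 and 3.35 for Klk8 in control, and 2.69 for Krt14 and 1.16 for Klk8 in knockdown. With macrophages holding Ptprc and no Hmga2 it was 3.16 for Krt7, 3.97 for Krt16 and 3.83 for Klk8 in control, and 3.12 for Krt14, 2.72 for Krt16 and 1.34 for Klk8 in knockdown. With Lyz2 under 2 per 10000, Klk8 in control was at 2.38. Without the cells holding both genes it was 0.99 for Krt16 and 1.27 for Klk8 in control. Genes 2-fold higher in positive cells numbered 40 for Krt7 in control when 2 UMIs were required, from 18; without the cells holding both genes, 48 for Krt16, from 337, and 63 for Klk8, from 291, in control. For Klk8 in knockdown they numbered 17 with a higher UMI minimum per cell, 15 with Xist at 0 and 14 when 2 UMIs were required, from 32. The alternatives that leave out cells with both genes or the richest cells, or that take macrophages by Ptprc and Hmga2, were chosen after seeing the data. No paired analysis was possible because each group has 1 library. Krt8 and Krt18 had at most 9 UMIs in either library's tumour-like cells, which allows no fold. The excess of Klk8 over macrophages in knockdown had an interval that includes 0 with the main macrophage rule and above 0 with both stricter ones.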
